A study of Mus musculus with 6 samples.

Results

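Collagen chains are the mRNAs, described here in the aorta of mice with and without miRNA-26b, whose gene symbols follow the pattern of a collagen type and an alpha chain number, such as Col1a1. That naming rule picked 44 of the 55341 genes in the count table, namely 11 fibrillar chains, the 6 basement membrane chains of type IV collagen and 27 chains of other types. The rule uses no measured value. RNA was sequenced from the aortas of 3 miRNA-26b-/- mice (libraries M2626, M2627 and M2628) and 3 miRNA-26b+/+ mice (libraries M2629, M2630 and M2631), all 8 weeks old and on chow diet. The knockout removes the precursor of both miRNA-26b-5p and miRNA-26b-3p from an intron of its host gene, Ctdsp1. The allele was built in embryonic stem cells of the 129/Sv strain R1/E, was deleted with tamoxifen in mice carrying an inducible CreERT2, and was later separated from CreERT2 by breeding. The founders were crossed to C57BL/6, the resulting lines are described both as a mix of 129/Sv and C57BL/6 and as C57BL/6, and the sample labels state C57BL/6NCrl. Each library is treated here as 1 mouse.

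A collagen molecule is a rope of alpha chains wound around each other, made in the endoplasmic reticulum by fibroblasts, smooth muscle cells and endothelial cells. In the wall of the aorta the fibrillar types I and III carry the load at high pressure, type V sits inside those fibrils and sets their width, and type IV forms the sheet-like network of the basement membrane under the endothelium and around each smooth muscle cell. Type VI builds beaded filaments beside the cells, type XVIII and type XV are basement membrane proteoglycans, and the types called FACIT bind to the surface of fibrils. The chains of a heterotrimer come from separate genes, so their mRNAs need not change together.

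Depth was similar in the 6 libraries, with 25706728 to 33345037 counts assigned to genes. The row of the miRNA-26b gene held 0 counts in each knockout library and 0, 20 and 0 in the wild type, too few to check the genotypes, and the miRNA itself was not measured. The labels call the samples endothelial cells of the aorta, whereas the 10 smooth muscle markers summed to between 37750 and 50762 CPM (normalised counts scaled to library size) in every library and the 10 endothelial markers to between 541 and 1824 CPM. In these bulk samples, fewer cells of a type and less RNA per cell cannot be told apart. Endothelial markers summed to 541 and 558 CPM in M2626 and M2627, to 1824 CPM in M2628, and to 1274 to 1738 CPM in the miRNA-26b+/+ libraries. Of the 10 endothelial markers 1, Tek, passed an unadjusted p of 0.05, being lower in the knockout, and every endothelial marker was detected in every library. The 10 fibroblast markers summed to 4043, 4625 and 6490 CPM in the knockout and to 4817, 5359 and 5689 CPM in the wild type, and none of the 10 passed. The 10 Schwann cell markers summed to 392 to 598 CPM in the knockout against 235 to 324 CPM in the wild type, and 9 of the 10 were higher in the knockout at that threshold. Single markers made up much of these sums. Gsn alone held 2528, 2845 and 3782 CPM of the fibroblast sum in the knockout and 2753, 3283 and 3443 CPM in the wild type. Pmp22 alone held 291, 312 and 221 CPM of the Schwann cell sum in the knockout and 194, 189 and 213 CPM in the wild type.

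To show what was removed from the knockout, the mature miRNAs are printed with their seed (bases 2 to 8 from the 5′ end) in capitals, beside miRNA-26a-5p, which comes from another gene and keeps the same seed. The sequences are from RefSeq, and miRNA-26b-5p lies at chr1:74394324-74394344 on the plus strand of GRCm38.p6.
mmu-miR-26b-5p: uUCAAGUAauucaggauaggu
mmu-miR-26b-3p: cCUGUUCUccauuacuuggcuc
mmu-miR-26a-5p: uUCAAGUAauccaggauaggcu

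The letters that pair with the 26b-5p seed, TACTTGA, were searched on the transcript strand of the longest 3′ untranslated region that GENCODE M21 gives each gene. They occurred in 5 of the 44 collagen chains (11.4%), against 11.3% of the 13458 tested genes with such a region, and in 3 of the 32 chains that could be tested (9.38%). The 5 matches are shown with the pairing letters in capitals, the last capital A of Col1a2 and Col10a1 being the extra base of the longer match, TACTTGAA.
Col1a2: agtatttcagaTACTTGAAgaatatgaacg
Col10a1: tattctttaaaTACTTGAAtattcaaattg
Col11a1: tttgattgtcaTACTTGAccatccagagaa
Col6a6: ttttgtatgttTACTTGAcaactccagaca
Col9a1: tacataagtgcTACTTGAcaatcagattta

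The Col1a2 stretch is chr6:4541191-4541220 on the plus strand and the Col6a6 stretch is chr9:105689296-105689325 on the minus strand, both in GRCm38. Col1a2, the second chain of type I collagen, was the only match among the 15 most abundant chains. The pairing letters of miRNA-26b-3p, AGAACAG, occurred in 4 of the 44 chains (Col4a1, Col4a4, Col3a1 and Col26a1), or 9.09%, against 16.8% of tested genes. A match is a run of letters and was not tested as a binding site.

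Levels are given as RPKM, the CPM after trimmed-mean (TMM) scaling divided by the length of the gene's merged exons, so that chains can be compared with each other. The chains of the load-bearing fibrils and of the basement membrane were the most abundant. The mean of all 6 libraries was 452 RPKM for Col1a1, 436 for Col3a1, 418 for Col18a1 and 368 for Col1a2. Col4a1 followed with 273, Col4a2 with 211, Col6a1 with 187 and Col6a2 with 128 RPKM, and then Col15a1, Col5a1, Col4a5, Col5a2, Col14a1, Col6a3 and Col4a6 with 85.2 to 42.9 RPKM. The next chain, Col16a1, averaged 10.9 RPKM. Neighbours in this order overlapped in their range over the libraries, apart from the steps from Col6a1 to Col6a2, from Col6a2 to Col15a1 and from Col4a6 to Col16a1. Merged exons include rarely used ones (12426 bases for Col1a2 against 6563 for Col1a1), so a chain with many alternative exons has its level understated. All collagen chains together took 2.09%, 2.20% and 3.14% of the counts in the knockout libraries and 2.22%, 2.25% and 2.61% in the wild type.

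**Figure D1:**
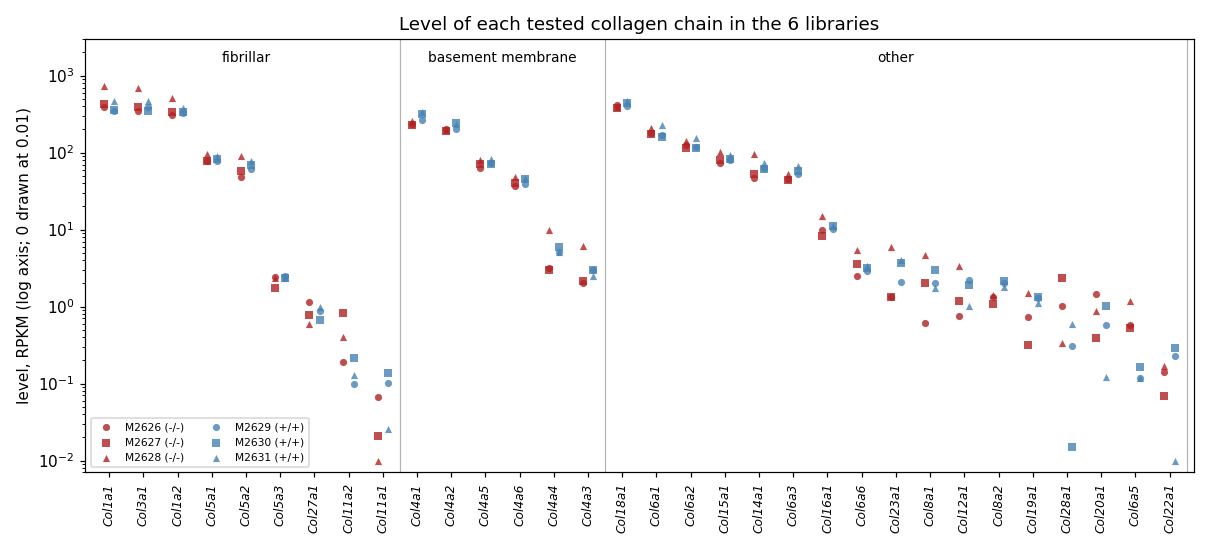
Level of each of the 32 tested collagen chains in RPKM on a log axis, ordered by mean level within the fibrillar, basement membrane and other groups. Red symbols are the 3 miRNA-26b-/- libraries and blue symbols the 3 miRNA-26b+/+ libraries; the groups overlap for most chains, and Col6a5 has all 3 red symbols above all 3 blue ones.

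Of the 44 chains 32 passed the filter on low counts (over 1 CPM in at least 2 libraries), with 9 of the 11 fibrillar chains, all 6 type IV chains and 17 of the 27 others. The filter depends on level in any library, so the tested chains are not the whole family. No count was found in any library for Col2a1 and Col9a3, which are chains of cartilage collagens, for Col7a1, the anchoring fibril of skin, or for Col24a1. The other untested chains had few counts, in at most 3 libraries each. Col10a1, a chain of growth-plate cartilage, had 20, 0 and 63 counts in the knockout and 15, 0 and 0 in the wild type. Col9a1 had 60 counts in M2629 and none elsewhere, Col25a1 had 38 counts in M2629 alone, and Col9a2 had 28 counts in M2626 alone. Col6a4 had 20 counts in M2628, 12 in M2629 and 30 in M2631. Col13a1 had 14 counts in M2626, 1 in M2629 and 11 in M2630, Col26a1 had 1 count in M2628 and 7 in M2630, and Col17a1 had 1 count in M2629.

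The comparison of miRNA-26b-/- with miRNA-26b+/+ aortas asked which chains the loss of miRNA-26b moved. By edgeR's quasi-likelihood test, 5 of the 32 tested chains had an unadjusted p under 0.05, against 6.47% of all 16017 genes tested. Of these, 3 were higher in the knockout (Col6a5, Col28a1 and Col11a2), against 3.4% of all genes in that direction, and 2 were lower (Col4a1 and Col6a3), against 3.07%. None of the 32 had a Benjamini-Hochberg adjusted p under 0.05, with 0.731 as the smallest, and DESeq2 and limma voom also called none after adjustment. Across all genes 0.00624% passed that adjustment by edgeR, which is 1 gene, while 57 genes passed by DESeq2 and 3 by limma voom.

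The fitted log2 fold change was above 0 in 14 chains and below 0 in 18, and 48.6% of all genes were below 0. Its median over the tested chains was -0.01, with 0.00 for the fibrillar, -0.08 for the basement membrane and -0.00 for the other chains, beside 0.01 for all genes. Without M2628 these medians were -0.19 for all tested chains and -0.12 for the fibrillar chains. They were then -0.29 for the basement membrane and -0.26 for the other chains, with 0.01 for all genes. Without M2626 the medians were, in the same order of chains, 0.09, 0.09, -0.0050 and 0.10. Without M2627 they were 0.07, 0.06, -0.06 and 0.13. The median of all tested chains was -0.05 without M2629, -0.02 without M2630 and 0.03 without M2631. Its direction thus changed with the library left out. The 3 knockout libraries lay wholly outside the range of the 3 wild-type libraries in CPM for 3 chains (Col6a5 above, Col4a1 and Col8a2 below), where 11.5% of all genes did so in either direction.

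**Figure D2:**
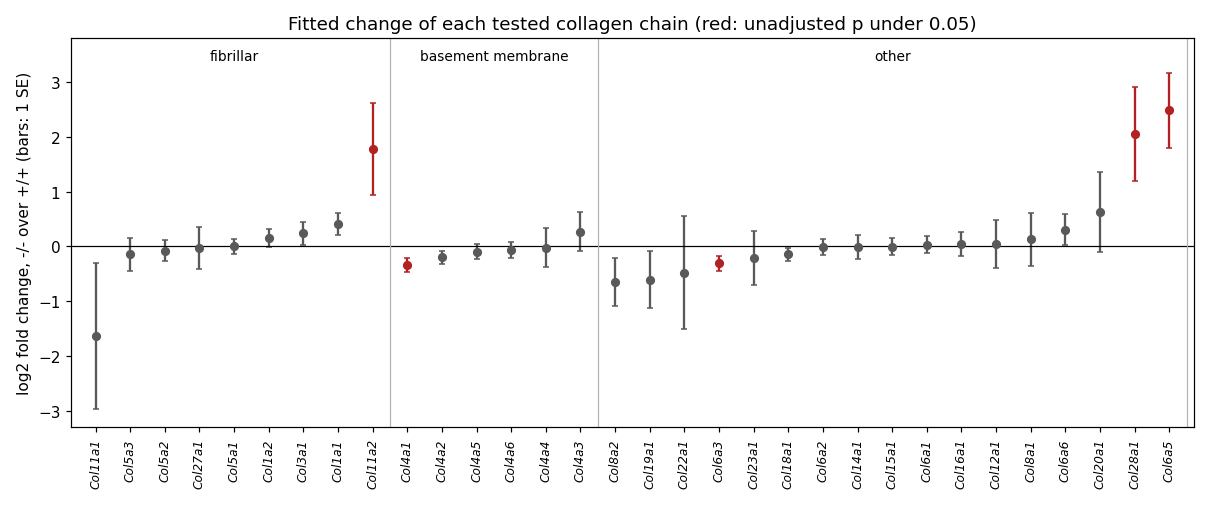
Fitted log2 fold change of miRNA-26b-/- over miRNA-26b+/+ for the 32 tested chains, with bars of 1 standard error, ordered within each group. The 5 red points have an unadjusted p under 0.05; the 15 most abundant chains lie between -0.34 and 0.40, and the widest bar, of Col11a1, belongs to a chain with at most 48 counts in a library.

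Among the abundant fibrillar chains 1 knockout library, M2628, stood apart from the other 5. Col1a1, the major chain of type I collagen, stood at 391, 431 and 722 RPKM in the knockout and at 345, 357 and 464 RPKM in the wild type. M2628 was far above all others, and the other 2 knockout libraries lay inside the wild-type range. The fitted log2 fold change was 0.40 (SE 0.197, unadjusted p = 0.0584, adjusted p = 0.769 by edgeR), and it was 0.08 without M2628.

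Col3a1, the single chain of type III collagen, stood at 342, 386 and 687 RPKM in the knockout and at 390, 346 and 463 RPKM in the wild type. Its log2 fold change was 0.24 (SE 0.208), with an unadjusted p of 0.269. Col1a2 stood at 306, 336 and 518 RPKM in the knockout and at 327, 335 and 385 RPKM in the wild type. Its log2 fold change was 0.15 (SE 0.170), and without M2628 both Col3a1 (-0.13) and Col1a2 (-0.12) were lower in the knockout, neither at p under 0.05.

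Of the type V chains, Col5a1 and Col5a2 were also highest in M2628. Col5a1 stood at 77.6, 77.3 and 96.7 RPKM in the knockout and at 77.6, 83.5 and 90.3 RPKM in the wild type, with group means of 83.9 ± 11.1 and 83.8 ± 6.37 RPKM (SD, n = 3 each). Col5a2 stood at 48.5, 57.0 and 90.4 RPKM in the knockout and at 60.8, 68.4 and 77.9 RPKM in the wild type. The knockout values of Col5a2 bracketed every wild-type value, and the log2 fold change was -0.08 (SE 0.193). Col5a3 (1.73 to 2.5 RPKM over the 6 libraries) and Col27a1 (0.588 to 1.16 RPKM) were low and had overlapping groups.

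The remaining fibrillar chains belong to type XI, known from cartilage. Col11a2 had 34, 189 and 78 counts in the knockout and 21, 40 and 27 in the wild type, or 0.193, 0.820 and 0.402 RPKM against 0.0997, 0.212 and 0.130 RPKM. The lowest knockout library lay within the wild-type range, and M2627 was highest. The log2 fold change was 1.78 (SE 0.835, unadjusted p = 0.0481, adjusted p = 0.768), and without M2627 it was 1.06 with an unadjusted p of 0.297. Col11a1 had 22, 9 and 0 counts in the knockout and 40, 48 and 10 in the wild type. The 10 cartilage markers summed to 235 to 496 CPM in the knockout and 406 to 465 CPM in the wild type, with Cnmd and Matn1 at 0 in every library, 1 marker higher (Snorc) and 1 lower (Cytl1) at p under 0.05 among the 8 tested. Cytl1 alone, at 141 to 344 CPM, made up most of that sum. Sox9, Hapln1, Matn3 and Snorc were highest in M2627, like Col11a2, whereas Acan and Comp were highest in M2628 and Cytl1 and Chad in M2630. In M2627, the highest library for Col11a2, the 10 sympathetic neuron markers summed to 327 CPM against 13.1 to 62.5 CPM in the other 5 libraries (5 of 8 tested higher in the knockout, with Dbh, Th and Chrna3 at 0 except in M2627 and M2630), and the 10 skeletal muscle markers to 118 CPM against 4.47 to 45.3 CPM (9 of 10 higher, with Myh1, Myh4 and Pvalb at 0 except in M2626 and M2627). The part of these cell types in the Col11a2 difference was not tested.

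Of the 6 basement membrane chains 5 had a log2 fold change below 0, where 48.6% of all genes did, and 1, Col4a1, passed the unadjusted threshold. Col4a1, the most abundant type IV chain, stood at 237, 230 and 257 RPKM in the knockout and at 261, 320 and 334 RPKM in the wild type. All knockout values lay below all wild-type values, with means of 241 ± 14.3 and 305 ± 38.8 RPKM (SD, n = 3 each). The log2 fold change was -0.34 (SE 0.128, unadjusted p = 0.018, adjusted p = 0.736). The 15 alternative analyses include a fit with a prior count of 2, which alters only the fold change and cannot change p. The unadjusted p stayed under 0.05 in 12 of the 15 and rose to at most 0.0784, that being the value without M2630. It was 0.0677 without M2627 and 0.072 without M2631.

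Col4a2, the partner of Col4a1 in the common type IV trimer, stood at 200, 193 and 198 RPKM in the knockout and at 200, 239 and 238 RPKM in the wild type. The wild-type library M2629 matched the knockout values, and the log2 fold change was -0.20 (SE 0.122, unadjusted p = 0.127). Col4a5 stood at 62.6, 70.9 and 79.7 RPKM in the knockout and at 74.0, 72.0 and 81.5 RPKM in the wild type, with a log2 fold change of -0.09 (SE 0.135). Col4a6, which with Col4a5 makes the smooth muscle form of the network, ranged from 37.2 to 48.5 RPKM with overlapping groups.

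Col4a3 and Col4a4, chains best known from the kidney glomerulus, had the same high and low libraries. Col4a3 stood at 2.04, 2.16 and 6.04 RPKM in the knockout and at 2.97, 3.02 and 2.51 RPKM in the wild type. Col4a4 stood at 3.14, 3.02 and 9.78 RPKM in the knockout and at 5.06, 6.02 and 5.05 RPKM in the wild type. For both chains M2628 was the highest of the 6 libraries and M2626 and M2627 were the lowest, so the groups overlapped. The sum of the endothelial markers, given above, was also highest in M2628 and lowest in M2626 and M2627. Singly, Pecam1, Vwf, Cdh5 and Erg were highest in M2628, but Tek, Tie1 and Emcn were highest in M2630 and Egfl7 and Cldn5 in M2631. Kdr was lowest in M2628 (8.83 CPM). The part of endothelial cells in the Col4a3 and Col4a4 levels was not tested. Without M2628, Col4a4 was lower in the knockout by edgeR (log2 fold change -0.80, unadjusted p = 0.00192). As M2628 held the highest value of Col4a4, leaving it out lowers the knockout mean by construction.

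The type IV genes lie in head-to-head pairs. In the annotation of GRCm38, Col4a1 and Col4a2 on chromosome 8 overlap by 22 bases at their starts, Col4a5 and Col4a6 on chromosome X are 1308 bases apart, and Col4a3 and Col4a4 on chromosome 1 are 71 bases apart. Col4a1 was highest in M2631 and Col4a2 in M2630, while Col4a5 was highest in M2631 and Col4a6 in M2628. Of the 25 chains that averaged at least 1 RPKM, 15 were highest in M2628 and lowest in M2626 or M2627. Col4a3 and Col4a4 were among them, so their pattern was not particular to this pair. The stretch between Col4a4 and Col4a3 is shown because these chains were high and low in the same libraries. It is taken from the RefSeq window around the Col4a4 start, chr1:82586820-82586950 on the minus strand of GRCm38.p6, with the bases between the genes in capitals and 30 bases of each gene's start in lower case. Read on the minus strand, the first 30 lower-case bases lie in Col4a3 and the last 30 in Col4a4. The printed order is thus the reverse of the names in the label.
Col4a4 to Col4a3: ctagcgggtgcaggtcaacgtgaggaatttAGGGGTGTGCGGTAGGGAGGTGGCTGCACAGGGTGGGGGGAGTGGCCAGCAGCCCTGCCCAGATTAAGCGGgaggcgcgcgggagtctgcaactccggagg

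Of these 71 bases, 69% were G or C. Motifs were searched on both strands as the letters TATAAA for the TATA box, the letters CCAAT for the CAAT box and the letters GGGCGG for the GC box, and none of them was in the capital stretch. Over all 32851 promoter windows in the table, 13.6% held the TATA box, 37.4% the CAAT box and 35.7% the GC box. Of the 44 chains 35 had a window, 38 windows in all, of which 13.2% held the TATA box, 34.2% the CAAT box and 60.5% the GC box. In the 28 windows of tested chains these shares were 7.14%, 28.6% and 67.9%. In the windows of all tested genes they were 7.47%, 37% and 59.8%.

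Among the other chains, type VI gave both a higher and a lower chain. Col6a5, an alternative chain thought to take the place of the Col6a3 chain in type VI trimers, had 137, 166 and 309 counts in the knockout and 34, 43 and 34 in the wild type. Its level was 0.569, 0.526 and 1.16 RPKM in the knockout against 0.118, 0.166 and 0.120 RPKM in the wild type. Every knockout library was above every wild-type library, without overlap. The log2 fold change was 2.48 (SE 0.681, 5.57-fold, unadjusted p = 0.0022), and the adjusted p was 0.731. The unadjusted p stayed under 0.05 in all 15 alternative analyses, among them the changed prior count, which cannot move it. The log2 fold change ran from 2.02 to 2.71. The adjusted p ran from 0.0925 to 0.984 over the same alternatives.

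Col6a3 itself, which was far more abundant, stood at 45.5, 44.2 and 53.0 RPKM in the knockout and at 52.1, 57.3 and 67.0 RPKM in the wild type. M2628 lay just above the lowest wild-type library, so the groups overlapped at that point. The log2 fold change was -0.31 (SE 0.138, unadjusted p = 0.0422, adjusted p = 0.752). The unadjusted p was under 0.05 in 11 of 15 alternatives, counting the changed prior count, which cannot move it. The exceptions were the fits without M2626, M2627, M2630 or M2631.

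Col6a1 and Col6a2, the obligate partners in every type VI trimer, did not separate the groups. Col6a1 stood at 182, 176 and 208 RPKM in the knockout and at 167, 160 and 226 RPKM in the wild type, with a log2 fold change of 0.03 (SE 0.148). Col6a2 stood at 125, 115 and 143 RPKM in the knockout and at 117, 115 and 154 RPKM in the wild type, with a log2 fold change of -0.01 (SE 0.143). Col6a6, the neighbour of Col6a5 on chromosome 9, ranged from 2.49 to 5.49 RPKM and had overlapping groups (log2 fold change 0.31, SE 0.277, and -0.03 without M2628).

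Col28a1, whose protein is known from the basement membrane around Schwann cells of peripheral nerve, had 129, 386 and 47 counts in the knockout and 46, 2 and 88 in the wild type. Its level was 1.03, 2.35 and 0.340 RPKM in the knockout against 0.306, 0.0149 and 0.594 RPKM in the wild type. M2628 fell within the wild-type range, and M2627 and M2626 were the highest libraries. The log2 fold change was 2.05 (SE 0.850, unadjusted p = 0.0286, adjusted p = 0.736), and without M2627 it was 1.09 with an unadjusted p of 0.276. Schwann cell markers were likewise highest in M2626 (598 CPM) and M2627 (564 CPM), followed by M2628 (392 CPM), with 9 of 10 higher in the knockout and only Ncmap at 0 in a library, M2629. The sympathetic neuron and skeletal muscle sums given for Col11a2 were also highest in M2627. The part of these cell types in the Col28a1 difference was not tested.

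Col18a1, which carries the endostatin fragment and was the most abundant chain outside types I and III, stood at 418, 384 and 388 RPKM in the knockout and at 400, 446 and 471 RPKM in the wild type. Its groups overlapped, with a log2 fold change of -0.14 (SE 0.118, unadjusted p = 0.239). The related Col15a1 ranged from 72.5 to 102 RPKM with a log2 fold change of -0.00 (SE 0.148).

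Type VIII, a network collagen of vessel walls, was low in these aortas. Col8a2 stood at 1.33, 1.10 and 1.40 RPKM in the knockout and at 2.04, 2.12 and 1.80 RPKM in the wild type. The groups did not overlap, yet the log2 fold change of -0.65 (SE 0.434) had an unadjusted p of 0.157. Col8a1 stood at 0.609, 2.0 and 4.63 RPKM in the knockout and at 2.01, 3.01 and 1.72 RPKM in the wild type, so the lowest and the highest value both came from the knockout.

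The chains that decorate fibrils or span the cell membrane had overlapping groups. Col14a1, the most abundant FACIT chain, ranged from 47.3 RPKM in M2626 to 95.3 RPKM in M2628. Col16a1 ranged from 8.27 to 15.2 RPKM, Col12a1 from 0.757 to 3.34 RPKM and Col19a1 from 0.316 to 1.49 RPKM, each highest in M2628. Col20a1 ranged from 0.122 to 1.44 RPKM (19 to 190 counts) and Col22a1 from 0 to 0.293 RPKM (0 to 74 counts). Col23a1, a transmembrane chain, stood at 1.32 and 1.35 RPKM in M2626 and M2627, at 5.87 RPKM in M2628 and between 2.10 and 4.03 RPKM in the wild type.

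The knockout libraries thus lay on both sides of the wild type for much of the family. Of the 25 chains that averaged at least 1 RPKM, 22 had their lowest value in M2626 or M2627, 16 had their highest value in M2628, and 15 did both. Without M2628, edgeR gave 11 chains at an unadjusted p under 0.05, of which 8 were lower in the knockout (Col4a1, Col4a4, Col5a2, Col14a1, Col6a3, Col23a1, Col12a1 and Col19a1) and 3 higher (Col6a5, Col28a1 and Col11a2). M2628 held the highest knockout value in each of the 8 lower chains, so leaving it out lowers their knockout mean by construction. In that fit 10.8% of all genes passed the same threshold, and none of the chains passed after adjustment. Fibroblast and endothelial marker sums were also lowest in M2626 and M2627 and highest in M2628, as given above. So were the 10 macrophage markers, with 352, 418 and 1027 CPM in the knockout and 600, 681 and 692 CPM in the wild type, none of them at p under 0.05 and Fcgr1 at 0 in M2627. The smooth muscle sum was lowest in M2628 (37750 CPM). The part of these cell types in the pattern was not tested.

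**Figure D3:**
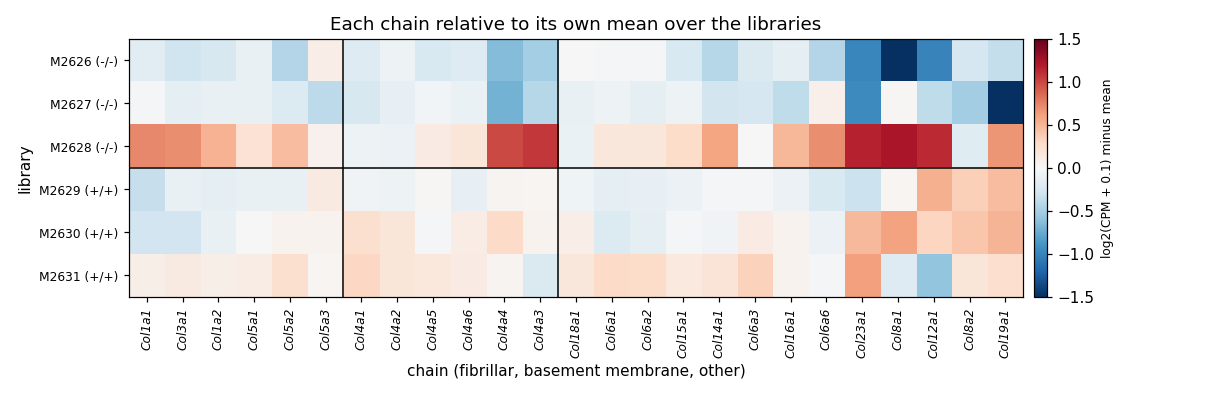
Each of the 25 chains with a mean of at least 1 RPKM relative to its own mean over the 6 libraries, as log2(CPM + 0.1) minus that mean, in red above and blue below. Rows are libraries, knockout above the line and wild type under it; the M2628 row is mostly red, and the M2626 and M2627 rows are mostly blue.

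Ratios of partner chains within a library do not depend on library size or on a change that all collagen mRNAs share. For 7 pairs the log2 ratio of RPKM was compared by a two-sided exact permutation test over the 6 libraries, in which 3 against 3 cannot give a p below 0.1. The groups did not overlap in 4 of the 7 ratios, each at that smallest p of 0.1 by the exact test (0.175 after Benjamini-Hochberg adjustment over the 7 ratios). The shares of all tested genes given below count only the direction seen in the ratio, so the share in either direction is larger.

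The ratio of Col6a3 to Col6a1 was the farthest apart of these 4. It was 0.2498, 0.2510 and 0.2549 in the knockout and 0.312, 0.358 and 0.296 in the wild type. The knockout libraries lay within a log2 SD of 0.0152, and the groups differed by -0.35 on the log2 scale. Of all tested genes set over Col6a1, 5.27% were lower in all knockout libraries than in all wild-type libraries.

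The ratio of Col1a2 to Col1a1 was 0.783, 0.781 and 0.718 in the knockout and 0.948, 0.937 and 0.828 in the wild type, a log2 difference of -0.25. All knockout ratios were below all wild-type ratios, M2628 included, and without M2628 the log2 difference was -0.21. The fitted log2 fold changes of the chains themselves were 0.15 for Col1a2 and 0.40 for Col1a1, neither at p under 0.05. The ratio of Col3a1 to Col1a1, which are not chains of one trimer but make up the same fibrils, was 0.877, 0.896 and 0.952 in the knockout and 1.13, 0.969 and 0.998 in the wild type, a log2 difference of -0.18. These ratios share Col1a1 and are not independent of each other, and 13.1% of all tested genes set over Col1a1 were lower in all knockout libraries.

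The ratio of Col4a2 to Col4a1 went the other way, with 0.846, 0.840 and 0.769 in the knockout and 0.764, 0.748 and 0.713 in the wild type. Its log2 difference was 0.14, the gap between the groups was narrow (0.769 in M2628 and 0.764 in M2629), and 18.3% of all tested genes set over Col4a1 were higher in all knockout libraries. The ratio of Col6a2 to Col6a1 was close in all libraries, from 0.654 to 0.715, with a log2 difference of -0.05 (exact permutation p = 0.3). The ratio of Col5a2 to Col5a1 ran from 0.626 to 0.934 in the knockout and from 0.783 to 0.863 in the wild type (exact permutation p = 0.6), and that of Col8a2 to Col8a1 from 0.302 to 2.19 and from 0.703 to 1.05 (exact permutation p = 0.7).

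**Figure D4:**
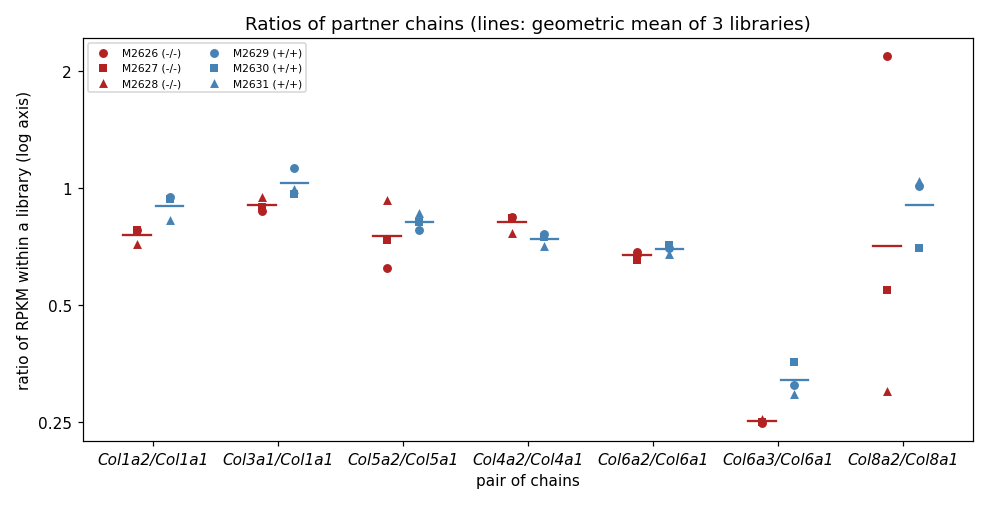
Ratio of RPKM of partner chains within each library on a log axis, with red symbols for miRNA-26b-/- and blue for miRNA-26b+/+ libraries and a line at the geometric mean of each group of 3. Red and blue do not overlap for Col1a2/Col1a1, Col3a1/Col1a1, Col4a2/Col4a1 and Col6a3/Col6a1, and the red symbols of Col6a3/Col6a1 lie between 0.2498 and 0.2549.

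The genes that modify, fold, export, cross-link, assemble, bind and degrade collagen were examined beside the chains. Of 69 such genes 64 passed the filter (Tll1, Tll2, P4ha3, Kera and Gp6 did not), 6 had an unadjusted p under 0.05 by edgeR against 6.47% of all genes, and none passed after adjustment by edgeR, DESeq2 or limma voom. By the other tools 7 genes each had an unadjusted p under 0.05. Of the 6, 1 was higher in the knockout and 5 were lower. The median log2 fold change of the 64 genes was -0.04, and the groups did not overlap for 11 of them, beside 11.5% of all genes.

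The enzymes and chaperones of the endoplasmic reticulum held 3 of the 5 lower genes. P4ha1, a catalytic subunit of the prolyl 4-hydroxylase that makes the collagen helix stable, stood at 137, 109 and 180 CPM in the knockout and at 239, 194 and 213 CPM in the wild type. All knockout values were below all wild-type values (log2 fold change -0.60, SE 0.180, unadjusted p = 0.00443, adjusted p = 0.734). Serpinh1, the collagen chaperone HSP47, stood at 1191, 1020 and 1210 CPM against 1312, 1347 and 1500 CPM, without overlap (log2 fold change -0.28, unadjusted p = 0.0394). Mia3, which loads collagen into transport vesicles, stood at 66.3, 77.9 and 75.1 CPM against 92.4, 101 and 94.2 CPM, again without overlap (log2 fold change -0.39, unadjusted p = 0.0321).

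In these 3 genes, unlike in most chains, M2628 lay with M2626 and M2627 below the wild type. Among the 14 tested genes of prolyl and lysyl hydroxylation 12 had a log2 fold change below 0, with a median of -0.13, and P4ha1 alone passed the threshold. Of all 64 tested collagen-handling genes 36 were below 0, and of all genes tested 48.6%. Among the 10 genes of folding and export 6 were below 0, with a median of -0.10.

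Outside the endoplasmic reticulum, Sparc, a secreted protein that binds collagen and guides its assembly, stood at 4816, 4717 and 5991 CPM in the knockout and at 3821, 3590 and 4243 CPM in the wild type. The groups did not overlap, and the log2 fold change was 0.41 (SE 0.129, unadjusted p = 0.00593, adjusted p = 0.734). Itgb1, the beta subunit shared by the collagen-binding integrins, stood at 2365, 2136 and 2158 CPM against 2655, 2739 and 2818 CPM, with a log2 fold change of -0.30 (unadjusted p = 0.0184). Loxl4, a cross-linking enzyme, stood at 7.19, 4.50 and 16.5 CPM against 19.7, 16.3 and 16.8 CPM, and M2628 reached the wild-type range (log2 fold change -0.94, unadjusted p = 0.0389). None of the 6 tested genes of propeptide cleavage and none of the 8 of collagen breakdown passed an unadjusted p of 0.05, with medians of 0.03 and 0.24. Without M2628 the count was 12 genes (1 higher and 11 lower), where 10.8% of all genes passed. P4ha1 then had an adjusted p of 0.034 by edgeR (log2 fold change -0.81), and in that fit 82 of all 15654 genes tested had an adjusted p under 0.05. M2628 held the highest knockout value of P4ha1, so leaving it out lowers its knockout mean by construction. Without M2630 the count was 2, where 4.97% of all genes passed.

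**Figure D5:**
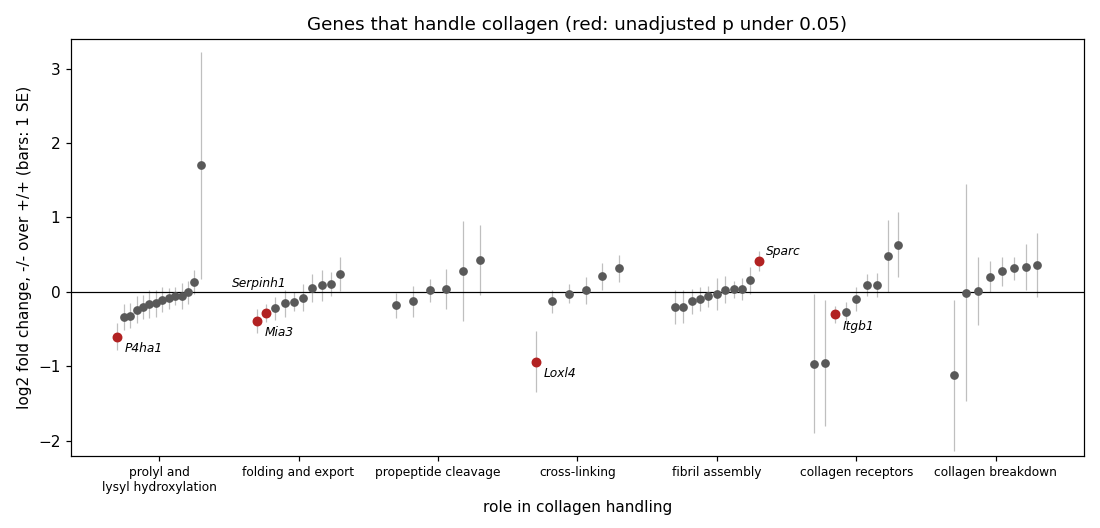
Fitted log2 fold change of miRNA-26b-/- over miRNA-26b+/+ for the 64 tested genes that handle collagen, by role, with bars of 1 standard error. The 6 red points, labelled by name, have an unadjusted p under 0.05, and Sparc is the only one above 0. Of the 14 points of prolyl and lysyl hydroxylation 12 lie below 0, where 48.6% of all genes tested do.

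Some chains lie on the chromosome of the targeted gene, whose allele was made in 129/Sv cells. Measured from the miRNA-26b gene on chromosome 1, Col4a4 was 8.05 and Col4a3 8.19 megabases away, Col6a3 16.4, Col5a2 28.9 and Col3a1 29.0 megabases. Strain of origin along this chromosome was not tested. Of the 5 chains at p under 0.05 only Col6a3 lies there; Col6a5 is at chr9:105856078-105960643, Col28a1 at chr6:7997808-8192617, Col11a2 at chr17:34039437-34066685 and Col4a1 at chr8:11198423-11312826 in GRCm38.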

How the data were processed

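Per the methods, the authors aligned the reads to GRCm38/mm10 with STAR. Per the file header, reads were counted per gene symbol with featureCounts 1.6.4 on GENCODE release M21 exons, a read that overlapped several genes being counted in each and strand not being used. The methods name a later GENCODE release, and the header was followed here. The deposited values used here are these raw counts. A deposited table of log2 CPM with the authors' own fold changes and p-values was not used.

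Low genes were dropped (a summed count below 2, or 1 CPM not exceeded in at least 2 libraries), and the remaining 16017 received TMM factors. The quasi-likelihood method of edgeR 4.0.16 was run on their counts in R 4.3.3 without covariates (prior count 0.125, Benjamini-Hochberg adjustment over all genes). DESeq2 1.42.0 and limma 3.58.1 (voom) served as alternatives, and the fit was tested on simulated data. RPKM used the deposited exon lengths, and of the 44 chains at most 6.07% of a chain's exon bases are shared with another gene. Positions and 3′ untranslated sequences came from GENCODE M21, miRNA and promoter sequences from RefSeq. Permutation tests used SciPy 1.17.1.

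Values in every library are given for the 3 most abundant chains of each group, those at p under 0.05, those without overlap and those in the ratios. The members, lists of collagen-handling genes and cell markers, and rules were chosen with earlier results of these data known. Nothing says that samples of a group were processed apart from each other. The edgeR test sets the difference between the groups against the spread of these libraries within a group. Any handling that the samples of a group shared could not be told apart from the genotype.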

Additional observations from a re-analysis of the deposited data

How the results depend on the processing

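The count of chains at an unadjusted p under 0.05 was 5 in the reported analysis, 3 with DESeq2, limma voom or the earlier edgeR quasi-likelihood method (5.28%, 5.29% and 5.01% of all genes), and 1 to 11 when each library was left out. It was 1 without M2630 (4.97% of all genes), 2 without M2627 (5.76%), 3 without M2629 (5.34%) or M2631 (4.36%), 5 without M2626 (5.76%) and 11 without M2628 (10.8%). No chain passed after adjustment in any alternative. The count of collagen-handling genes was 2 to 12 when a library was left out. The median of the basement membrane chains was -0.29 to -0.0050, the lowest value being that without M2628. Library size in place of TMM moved Col1a1 past the unadjusted threshold (0.42 by edgeR) and turned Col6a2 to 0.0069, and limma voom turned Col5a1 to -0.0049 and Col8a1 to -0.23. When a library was left out, the log2 fold change ran from -0.13 to 0.42 for Col3a1, -0.12 to 0.29 for Col1a2, -0.053 to 0.20 for Col6a1, -0.10 to 0.13 for Col6a2, -0.11 to 0.057 for Col5a1, -0.39 to 0.090 for Col5a2 and -0.69 to 0.54 for Col8a1. Over the same omissions the log2 difference of the Col5a2/Col5a1 ratio ran from -0.27 to 0.015 and that of Col8a2/Col8a1 from -1.16 to 0.27. The 4 ratios without overlap cannot change direction when 1 library is left out, so their direction was not put to a test by the omissions. The cause of these changes was not tested. No paired analysis was possible because the labels give no replicate numbers that the groups share. Chains with under 100 counts in a library, such as Col6a5, Col28a1 and Col11a2 in the wild type, have the least precise levels.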
